A study of Mus musculus with 20 samples.

Results

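The 10 immediate early and stress response genes described here are Fos, Fosb, Jun, Junb, Jund, Atf3, Egr1, Ier2, Dusp1 and Zfp36, out of 55471 genes in the count table. They were picked by name with results of these same libraries already known, so their levels and differences are given as a description and carry no test. All 10 were found in the table by their Ensembl gene identifiers. In the epidermis, a pair of acetone libraries, 11 and 12, held 98.5% of all acetone counts on these genes. That pair also held more counts on all genes: 1074046 and 938732 outside satellite repeats, against 92712 to 153039 in the other acetone libraries. It was above every other skin library for 9 of the 10 genes, so leaving it out lowers their acetone level. Without the pair the direction of the DNFB difference turned for 8 of the 10, and no conclusion is drawn from that turn. In the pancreas, 9 of the 10 had a higher fitted level after caerulein than after PBS, with Dusp1 and Junb furthest apart, and the fitted difference of Jund pointed the other way.

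Immediate early genes are transcribed within minutes of a stimulus, without the need for new protein synthesis. Growth factors, cytokines, wounding and cell stress act through MAP kinases on factors that already sit at their promoters, among them the serum response factor SRF, which binds the CArG box, and CREB, which binds the cyclic AMP response element (CRE). FOS and JUN proteins pair through leucine zippers to form AP-1, which is active in keratinocytes and in the injured pancreas. The response is short because the transcripts are unstable and because products such as DUSP1 and ZFP36 damp the signal or degrade the messages.

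RNA was sequenced from 20 wild-type mouse samples, 5 in each of 4 groups. Epidermis of the back skin came from mice that were 4 to 6 weeks old at the start and were painted for 22 days with acetone (mixed with olive oil, the carrier) or with the contact allergen DNFB in that carrier, after sensitization on the abdomen. Pancreas came from mice given PBS or caerulein, a peptide that overstimulates acinar cells, intraperitoneally at 50 μg per kg in 6 hourly injections on 3 days a week for 3 weeks. The study's methods name C57BL/6 as the wild-type strain and place collection of the pancreas at the end of the 3 weeks. The ages of the mice given PBS or caerulein and the hours from the last treatment to collection are not given in the sources used here. Nothing in the labels says that each library was a separate mouse, so p-values measure the spread between libraries. Both tissues were bulk samples, in which more cells of a type and more RNA per cell cannot be told apart.

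The libraries held 791557 to 2232100 counts, of which 37.9% to 94.3% fell on 12 predicted genes that share sequence with satellite repeats. The counts outside those genes, called usable counts below, ranged from 69628 to 1074046 per library and set the precision of every value here. A count of 0 allows a level of up to 3 counts, which, as counts per 1000000 (CPM) of the usable counts, here usable CPM, is 14.9 to 43.1 in the PBS libraries and 2.79 to 32.4 in the acetone libraries; such floors cover counting error only. Keratinocyte markers summed to 1387 to 15945 usable CPM in the skin libraries and to at most 161 in the pancreas, and acinar markers to 7055 to 304336 usable CPM in the pancreas and at most 236 in the skin. Acetone libraries 11 and 12 stood apart from the other 3 acetone libraries. They held 1074046 and 938732 usable counts against 92712 to 153039, and ribosomal protein genes, which every cell expresses, took 5.41% and 4.20% of those counts against 0.498% to 1.99%. Their 8 macrophage markers summed to 3237 and 3951 usable CPM, against 97.1 to 258 in the other acetone libraries and 154 to 502 in the DNFB libraries. Their 10 keratinocyte markers, all with counts, summed to 12997 and 15945 usable CPM, against 1411 to 7604 in the other acetone libraries and 1387 to 13269 with DNFB, and their endothelial markers to 36.3 and 45.8, against 108 to 137 and 71.1 to 133. Every group had libraries numbered 1 to 10 (3 acetone, 3 DNFB, 2 PBS and 2 caerulein) and 11 to 20 (2, 2, 3 and 3), and nothing in the labels says what the numbers stand for. Acetone libraries 11 and 12 are the only acetone libraries of the higher numbers, so what set that pair apart and the number range cannot be told apart. The chi-square per degree of freedom between the counts of a pair of libraries was 6.88 to 15.2 for acetone and 4.33 to 7.32 for PBS within a number range, and 31.0 to 87.0 and 24.9 to 61.1 across the ranges. For DNFB it was 7.17 to 18.9 within and 3.01 to 26.5 across, and for caerulein 9.04 to 39.6 and 5.88 to 34.4.

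The promoters were searched for these elements. RefSeq promoters of GRCm38.p6 were found for 8 of the 10 genes, all but Egr1 and Ier2. The 250 bases before the RefSeq start site were searched on both strands, except that TATAAA was searched on the strand of the gene only. For Jund these bases end at chr8:70697738, before the annotated gene start at chr8:70698949. They therefore do not describe the bases next to that start. For Atf3, Dusp1 and Zfp36 the searched bases lie inside the annotated gene span, downstream of its outermost start. Those of Fosb overlap the edge of its span. The CRE (TGACGTCA) was found in Dusp1 only, 143 to 136 bases before its start, and in 1.55% of all 32851 promoters of this length. Its first 5 letters, TGACG, which overlap the full CRE, were found in 5 of the 8 (Fos, Fosb, Junb, Atf3, Dusp1) and in 17.8% of all. Within these bases a CArG box was found in Zfp36 only and in 1.47% of all. The TATA box letters TATAAA were found in Fos only and in 7.59% of all. Bases farther upstream and the promoters of Egr1 and Ier2 were not searched, so any of the 10 genes may hold such elements there. The AP-1 letters TGANTCA were found in none of the 8 and in 6.75% of all, GGGCGG in 6 of 8 and 32.7%, and the EGR letters GCGGGGGCG in Fosb and Zfp36 and in 2.57%. The 4 promoters that follow are those of a FOS gene, the phosphatase, the mRNA decay factor and the stress factor. They run 5′ to 3′ and end at the base before the start site. Each holds a CArG box, a CRE or a single TGACG motif. Capitals mark CArG boxes, CREs, single TGACG motifs (the first part of a CRE, on either strand) and TATAAA.
Fos (chr12:85473640-85473889, plus strand): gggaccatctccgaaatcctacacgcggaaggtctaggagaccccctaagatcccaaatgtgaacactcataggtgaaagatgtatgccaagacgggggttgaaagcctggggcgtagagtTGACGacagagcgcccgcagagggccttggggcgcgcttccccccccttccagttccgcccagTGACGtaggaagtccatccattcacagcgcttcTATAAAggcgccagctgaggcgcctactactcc
Dusp1 (chr17:26508473-26508722, minus strand): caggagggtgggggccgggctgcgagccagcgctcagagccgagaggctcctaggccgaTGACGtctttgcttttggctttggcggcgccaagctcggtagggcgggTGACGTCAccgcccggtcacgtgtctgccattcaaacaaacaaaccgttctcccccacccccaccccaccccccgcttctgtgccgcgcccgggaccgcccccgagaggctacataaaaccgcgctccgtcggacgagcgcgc
Zfp36 (chr7:28379229-28379478, minus strand): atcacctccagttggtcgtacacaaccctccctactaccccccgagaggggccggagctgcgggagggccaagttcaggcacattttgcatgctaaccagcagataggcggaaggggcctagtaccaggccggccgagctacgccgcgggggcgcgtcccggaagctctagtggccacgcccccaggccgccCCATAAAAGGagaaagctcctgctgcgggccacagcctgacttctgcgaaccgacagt
Atf3 (chr1:191183334-191183583, minus strand): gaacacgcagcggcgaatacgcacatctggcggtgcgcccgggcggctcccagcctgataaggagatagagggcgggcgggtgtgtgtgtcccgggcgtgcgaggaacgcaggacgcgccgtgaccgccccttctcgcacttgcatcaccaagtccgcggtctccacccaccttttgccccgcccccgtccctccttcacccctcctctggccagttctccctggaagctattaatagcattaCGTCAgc

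The genes were short. Their median span was 3852.5 bases against 17396 for the 21847 protein-coding genes of the table, with a median of 2 exons in the coding transcript against 7. The pentamer ATTTA, the core of the AU-rich elements that mark unstable messages and that ZFP36 binds, was found in the 3′ untranslated region of 9 of the 10 (all but Ier2), against 61.5% of protein-coding genes with such a region. Fos, Dusp1 and Jun each held 4 copies, and Atf3 and Zfp36 held 3. Genes on the opposite strand overlap Jun (Junos), Junb (Prdx2), Jund (Gm11175), Atf3 (Gm24748) and Zfp36 (Gm44710), and Ergic1 and a few small genes overlap the long annotated span of Dusp1. These overlaps are of whole gene spans, introns included. The sources used here do not say that strand was used in counting, so reads from exon bases that overlapping genes share cannot be told apart.

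Fos (GRCm38 chr12:85473890-85477273, plus strand) encodes the prototype FOS subunit of AP-1. Its normalized CPM (counts scaled by the trimmed mean of M values within each tissue) was 16.1, 174 and 0 in acetone libraries 1, 2 and 3 and 617 and 595 in libraries 11 and 12. The DNFB libraries 4, 5, 6, 13 and 14 had 133, 39.0, 113, 159 and 53.5 normalized CPM of Fos. Acetone libraries thus lay on both sides of all DNFB libraries: the acetone mean was 280 ± 305 and the DNFB mean 99.6 ± 51.6 (SD, n = 5), and the fitted log2 fold change was -1.50 (SE 1.05). Without acetone libraries 11 and 12 it was 0.83 (SE 0.99). In the pancreas, Fos was at 13.2, 24.4, 5.95, 8.96 and 4.64 normalized CPM in PBS libraries 7, 8, 15, 16 and 17. The caerulein libraries 9, 10, 18, 19 and 20 had 29.1, 113, 39.0, 36.8 and 57.1. Every caerulein library was above every PBS library, and the fitted log2 fold change was 2.23 (SE 0.66).

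Fosb (chr7:19302696-19310051, minus strand) encodes a second FOS subunit, and it did not pass the filter on low counts in either tissue. It was at 22.5, 22.8, 0, 34.6 and 32.8 normalized CPM in acetone libraries 1, 2, 3, 11 and 12 and between 1.19 and 11.1 in the DNFB libraries. Of the acetone libraries, 4 were above every DNFB library and library 3 had no count, so the groups overlapped through that library alone. The fitted log2 fold change was -2.11 (SE 0.61), and it stayed negative, at -1.30 (SE 0.72), without acetone libraries 11 and 12. In the pancreas the PBS libraries had 1.55 to 9.596 and the caerulein libraries 1.57 to 15.8 normalized CPM of Fosb, on 18 and 104 counts in all, and the groups overlapped over most of their range (log2 fold change 0.72, SE 0.72).

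Jun (chr4:95049034-95052222, minus strand), a partner of FOS that can also pair with itself, was at 9.66, 56.9, 1.78, 203 and 285 normalized CPM in the acetone libraries in the same order. The DNFB libraries had 54.7, 3.40, 71.7, 78.3 and 7.80, so that DNFB fell into 3 higher and 2 lower libraries between the extremes of acetone. The lower pair, libraries 5 and 14, held 2 and 7 counts of Jun on 150233 and 232954 usable counts, the lowest depths of that group. The log2 fold change of Jun was -1.37 (SE 0.99) with all libraries and 1.17 (SE 0.97) without acetone libraries 11 and 12. In the pancreas PBS libraries had 4.64 to 14.8 and caerulein libraries 7.28, 44.3, 10.9, 18.5 and 58.3 normalized CPM. Of the 5 caerulein libraries, 3 were above every PBS library, and the log2 fold change was 1.73 (SE 0.65).

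Junb (chr8:84974484-84978718, minus strand) encodes a JUN protein that can limit JUN activity and that keratinocytes depend on to restrain skin inflammation. Acetone libraries had 22.5, 51.2, 3.56, 305 and 302 normalized CPM of Junb, and DNFB libraries 56.5, 33.95, 108, 115 and 53.5. Its log2 fold change in skin went from -0.92 (SE 0.86) to 1.69 (SE 0.82) when acetone libraries 11 and 12 were left out, and the remaining acetone libraries were all below 4 of the 5 DNFB libraries. In the pancreas Junb had 0, 11.3, 1.98, 0 and 3.09 normalized CPM with PBS, on 16 counts in all. With caerulein it had 7.28, 98.5, 13.3, 40.4 and 35.2, and 4 of the 5 libraries were above every PBS library. The log2 fold change of 3.37 (SE 0.90) was the second highest of the 10 genes.

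Jund (chr8:70698949-70700616, plus strand), the JUN gene known for steady rather than induced expression, was barely detected. The 4 groups held 25, 9, 14 and 27 counts in the order acetone, DNFB, PBS and caerulein. No library exceeded 8.96 normalized CPM, and 3 of 5 DNFB and 3 of 5 PBS libraries had no count. The fitted log2 fold changes, -1.51 (SE 0.79) in skin and -1.02 (SE 0.78) in pancreas, rest on those few counts, and a difference was not detectable at this depth. The mean of log2(normalized CPM + 1) in pancreas gave a difference of the opposite sign, 0.10.

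Atf3 (chr1:191170296-191218039, minus strand) encodes a stress-induced ATF factor that dimerizes with JUN proteins. It was at 32.2, 42.7, 3.56, 208 and 205 normalized CPM in the acetone libraries and 19.04, 1.70, 25.8, 47.0 and 22.3 in the DNFB libraries. Apart from libraries 11 and 12, the groups covered the same range, and the log2 fold change went from -2.08 (SE 0.87) to 0.05 (SE 0.77) without that pair. In the pancreas Atf3 did not pass the filter. PBS libraries had 7.32, 5.23, 0, 1.79 and 0 and caerulein libraries 9.70, 18.7, 8.58, 13.1 and 17.7 normalized CPM of Atf3. The groups did not overlap, though the lowest caerulein and highest PBS libraries were only 8.58 and 7.32, on 11 and 5 counts (log2 fold change 2.12, SE 0.74).

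Egr1 (chr18:34859823-34864984, plus strand) encodes a zinc finger factor downstream of ERK and SRF. It was at 9.66, 59.8, 14.2, 244 and 261 normalized CPM in the acetone libraries and 66.6, 13.6, 77.7, 57.1 and 32.3 in the DNFB libraries. The medians, 59.8 and 57.1, were close, while the fitted log2 fold change was -1.26 (SE 0.82) and 1.01 (SE 0.76) without acetone libraries 11 and 12. With PBS it had 17.6, 50.6, 3.97, 23.3 and 7.73 normalized CPM, which made it the most counted of the 10 genes in that group, with 90 of 337 counts. With caerulein the values were 58.2, 101, 72.6, 47.1 and 46.3, a narrow range, and only PBS library 8 reached into it (log2 fold change 1.63, SE 0.67).

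Ier2 (chr8:84661331-84662852, minus strand) encodes a small nuclear protein of the immediate early response. Its acetone values were 6.44, 56.9, 0, 141 and 176 normalized CPM and its DNFB values 54.7, 16.98, 26.9, 11.7 and 5.57. DNFB library 4 and acetone library 2 were alike, and the difference went from -1.73 (SE 0.93) to 0.35 (SE 0.89) on the log2 scale without acetone libraries 11 and 12. In the pancreas Ier2 ranged from 0 to 18.3 with PBS and from 8.27 to 50.8 with caerulein, with 3 of 5 caerulein libraries above every PBS library (log2 fold change 1.39, SE 0.73).

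**Figure D1:**
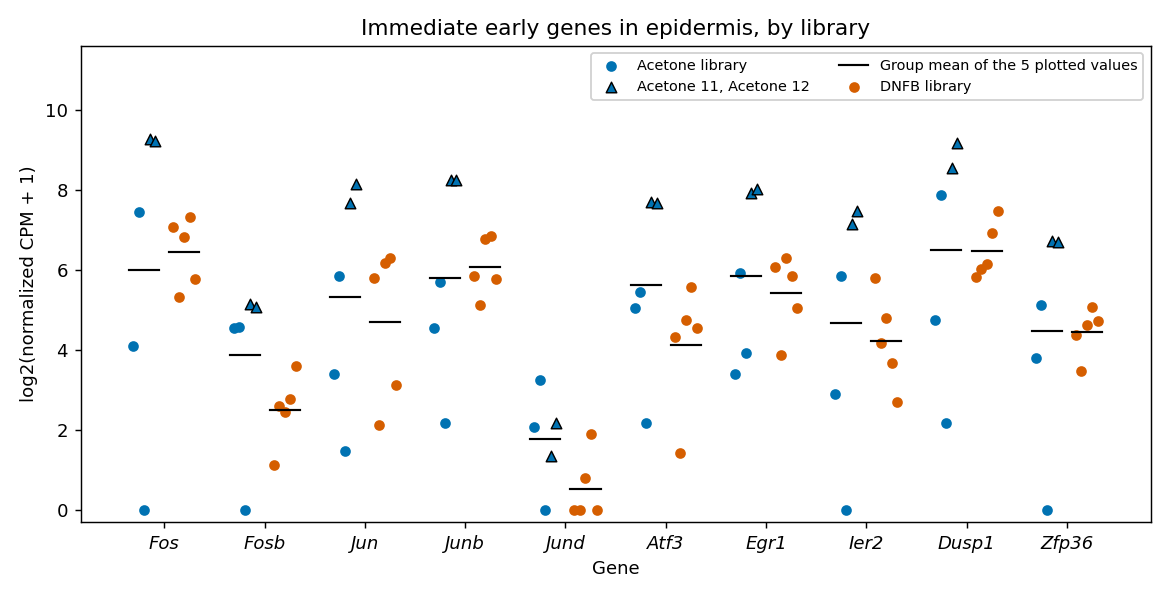
Each of the 10 genes along the horizontal axis in the 5 acetone (left of each pair) and 5 DNFB (right) epidermis libraries, as log2(normalized CPM + 1), with triangles for acetone libraries 11 and 12 and a bar at each group's mean of the plotted values. The triangles lie above every other library for 9 of the 10 genes, all but Jund.

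The last pair of genes acts in feedback. Dusp1 (chr17:26505590-26562128, minus strand) encodes a phosphatase that inactivates p38, JNK and ERK. It was at 25.8, 233, 3.56, 374 and 573 normalized CPM in the acetone libraries and 55.3, 64.5, 70.6, 121 and 176 in the DNFB libraries, whose range lay inside that of acetone. The log2 fold change was -1.32 (SE 0.91), and 0.28 (SE 0.89) without acetone libraries 11 and 12. In the pancreas Dusp1 had 0, 5.23, 0, 5.37 and 3.09 normalized CPM with PBS, on 11 counts in all. With caerulein it had 20.6, 306, 27.3, 74.9 and 41.1, on 2095 counts, and the lowest caerulein library was above every PBS library. This was the highest log2 fold change of the 10, 5.003 (SE 1.01). Caerulein library 10 alone held 73.7% of the caerulein counts of Dusp1, on 555784 usable counts against 87871 to 591567 in the other caerulein libraries. Without library 10 the log2 fold change was 3.86 (SE 0.82).

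Zfp36 (chr7:28376784-28380253, minus strand) encodes tristetraprolin, which binds AU-rich elements and brings about the decay of cytokine messages. Acetone libraries had 12.9, 34.2, 0, 106 and 104 normalized CPM and DNFB libraries 19.6, 10.2, 23.9, 32.9 and 25.6. On the log2(normalized CPM + 1) scale both groups averaged nearly the same, 4.48 ± 2.79 and 4.46 ± 0.60 (SD, n = 5), against a fitted log2 fold change of -1.23 (SE 0.77), or 0.74 (SE 0.77) without acetone libraries 11 and 12. In the pancreas PBS library 8, at 38.4, was above 4 of the 5 caerulein libraries, which had 20.6, 77.2, 28.1, 31.4 and 13.97. The other PBS libraries had 1.55 to 11.9, and the log2 fold change of Zfp36 was 1.35 (SE 0.72).

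**Figure D2:**
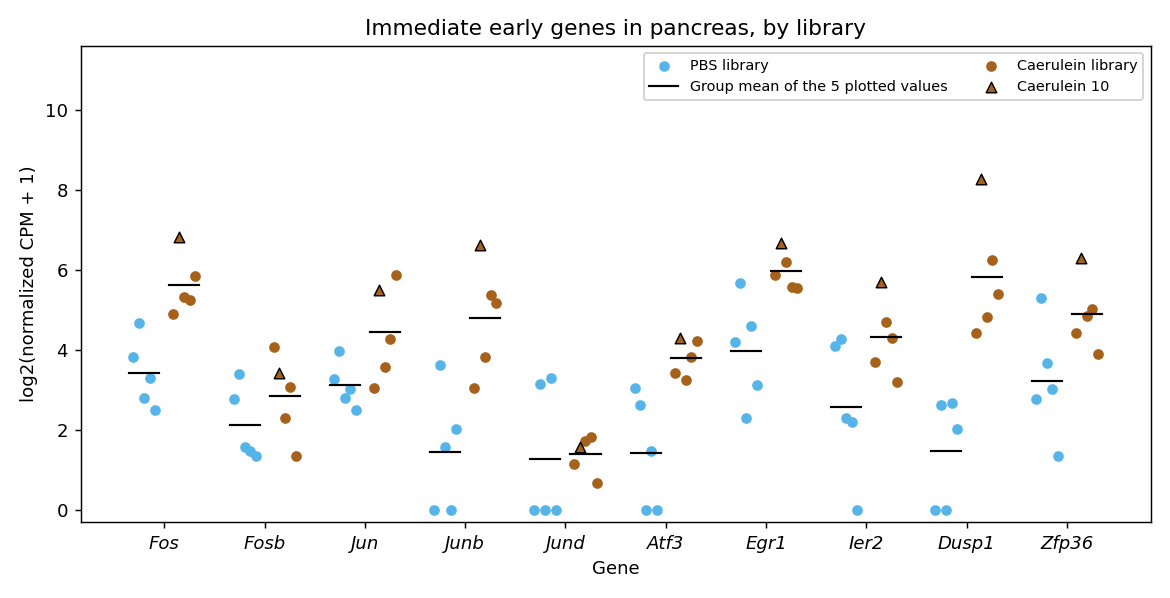
The same 10 genes in the 5 PBS (left) and 5 caerulein (right) pancreas libraries, as log2(normalized CPM + 1), with a triangle for caerulein library 10 and a bar at each group's mean of the plotted values. Caerulein and PBS libraries do not overlap for Fos, Atf3 and Dusp1, and caerulein library 10 is the highest of all 10 libraries for 7 of the genes.

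Over the 10 genes, the skin log2 fold changes were all negative, from -2.11 to -0.92, with a median of -1.43 against 0.02 for the 7265 genes tested. Without acetone libraries 11 and 12 the median was 0.54, against 0.17 for all genes tested, and only Fosb and Jund stayed negative. That pair was above every other skin library for 9 of the 10 genes, so leaving it out lowers their acetone level. The turn in sign is therefore no test of a DNFB effect. Leaving out just one of that pair kept all 10 negative. Among libraries 1 to 10, with 3 in each skin group, the median was 0.62 against 0.06 for all genes tested, and 6 of the 10 were positive, from -2.69 (SE 1.25) for Jund to 1.56 (SE 1.01) for Junb. Among libraries 11 to 20, with 2 in each group, all 10 were negative, from -4.15 (SE 0.85) for Ier2 to -0.43 (SE 0.84) for Jund, with a median of -2.29 against -0.14. With the number range as a term in the fit the median was -0.81 against 0.11, and Junb, at 0.08, was the only positive gene. The sign of 6 of the 10 thus turned between the number ranges, a difference that was not tested. The mean of log2(normalized CPM + 1), which weights a single high library less than the fit does, was higher with DNFB for Fos and Junb and lower for 8 genes, with a median difference of -0.43. Of the 8 genes that passed the filter in skin, 0 had an adjusted p under 0.05 by edgeR's quasi-likelihood test, where 0.0413% of all tested genes did (at an unadjusted p under 0.05 there were 214 higher and 211 lower genes). DESeq2, which tested all 10, also gave 0, where it called 80 of 22654 tested genes. For none of the 10 did the groups fail to overlap, which 1.27% of tested genes did.

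In the pancreas the 10 log2 fold changes ran from -1.02 to 5.003, with a median of 1.68 against 0.00 for the 946 genes tested, and without caerulein library 10 the median was 1.49. It was 1.22 among libraries 1 to 10 (2 PBS, 2 caerulein; 0.39 for all genes tested), 2.66 among libraries 11 to 20 (3 and 3; -0.03), and 1.81 with the number range as a term (0.04). In each of these 3 fits, 9 of the 10 were positive and Jund was not, and Dusp1 was at 5.76 (SE 1.76) among the lower and 4.15 (SE 0.93) among the higher numbers. Fos, Junb and Dusp1 were past the threshold among the 7 genes that passed the filter, where 12.2% of all tested genes were. DESeq2, which tested all 10, called 6 (Dusp1, Fos, Jun, Junb, Egr1 and Atf3), where it called 773 of 7855 tested genes. With libraries 11 to 20 alone 8 of the 10 were called, where 405 of 1196 tested genes were. The 10 genes were picked with this comparison known, so nothing is read from these counts. Every caerulein library was above every PBS library for Fos, Dusp1 and Atf3, the first 2 among genes that passed the filter, where this held for 2.54% of tested genes. When libraries were scaled by their ribosomal protein counts, the median of all tested genes was -0.73 and that of the 10 genes 1.11. At that scaling 0 of the 10 were past the threshold, as were 0 of all 946 tested genes. With library totals alone the all-gene median was 1.69 and that of the 10 genes 3.43, with Jund turning to 0.63.

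**Figure D3:**
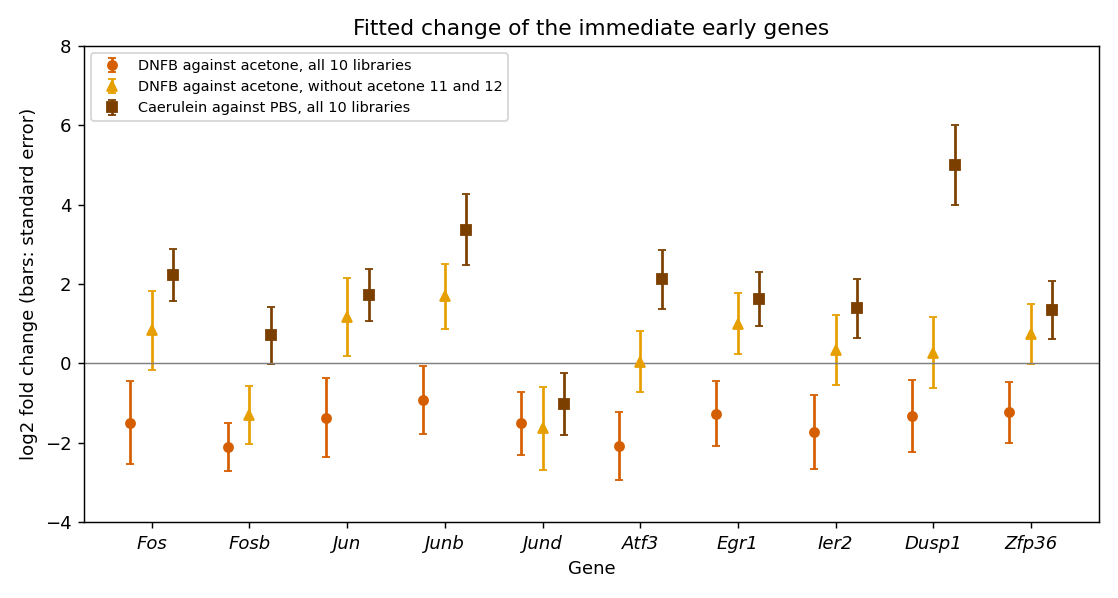
Fitted log2 fold change of each gene with its standard error (bars), for DNFB against acetone with all 10 libraries (circles), the same without acetone libraries 11 and 12 (triangles), and caerulein against PBS (squares). All circles are below 0, 8 of 10 triangles are above 0, and all squares but that of Jund are above 0.

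The 10 genes together took 0.0098% to 1.07% of the usable counts of a library. Acetone library 3 had 98.0 usable CPM on them in sum, and acetone libraries 1 and 2 had 539 and 2099. Acetone libraries 11 and 12 had 10656 and 10041, the highest 2 of all 20 libraries. The DNFB libraries had 739 to 2728, the PBS libraries 189 to 1108 and the caerulein libraries 1707 to 7444. Every caerulein library was thus above every PBS library on this sum as well. Depth moved with it: PBS libraries held 69628 to 201695 usable counts and caerulein libraries 87871 to 591567, and ribosomal protein genes took 0.661% to 1.37% of them with PBS and 1.17% to 4.18% with caerulein. Per 1000 ribosomal protein counts, the 10 genes had 24.5 to 81.1 counts with PBS and 71.8 to 250 with caerulein, and on this scale the groups overlapped. In skin the same ratio was 108, 105 and 10.9 in acetone libraries 1, 2 and 3, 197 and 239 in libraries 11 and 12, and 36.5 to 81.5 with DNFB.

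**Figure D4:**
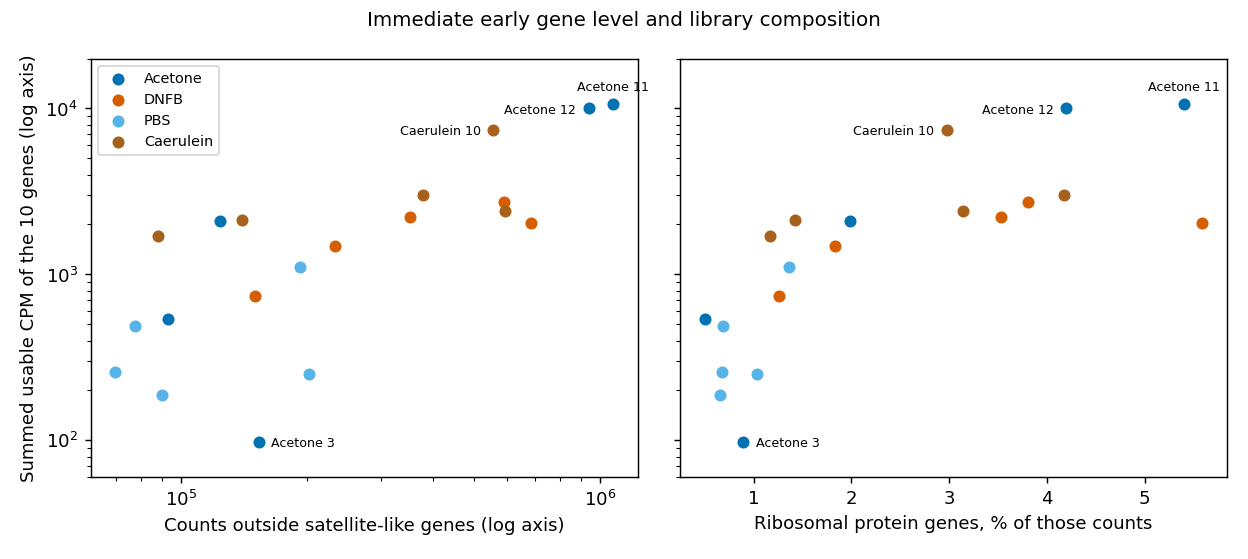
Summed usable CPM of the 10 genes (log axis) in each of the 20 libraries, against the usable counts of the library (left, log axis) and against the percent of those counts on ribosomal protein genes (right). Acetone libraries 11 and 12 have the most usable counts and the highest level of the 10 genes, and the PBS libraries lie at the lower left of both panels.

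Summed markers of several cell types moved with the genes in both tissues. Caerulein libraries had summed macrophage markers (8 genes, all with counts) of 876 to 14860 usable CPM against 59.5 to 1009 with PBS, and summed leukocyte markers (8 genes, all with counts) of 774 to 5135 against 119 to 724. Summed fibroblast markers (8 of 8 with counts) were at 1502 to 11485 against 94.2 to 3766. The 10 acinar markers went from 57611 to 304336 with PBS and from 7055 to 84111 with caerulein, and all 10 had counts in both groups. Caerulein library 10, the highest for 7 of the 10 genes, had the highest macrophage and fibroblast sums of all pancreas libraries. PBS library 8, the highest of the PBS libraries in the sum of the 10 genes, had the highest macrophage and fibroblast sums of that group. The leukocyte sum was instead highest in caerulein library 19 (5135 against 4574 in library 10) and, among PBS, in library 16 (724 against 645 in library 8). The highest neutrophil and duct sums were in caerulein library 20, and the highest islet sum was in caerulein library 18. In skin, acetone libraries 11 and 12 had leukocyte sums of 1050 and 1679 against 144 to 178 in the other acetone libraries and 247 to 1262 with DNFB, and fibroblast sums of 2474 and 2727 against 496 to 1703 and 494 to 849. Their neutrophil and endothelial sums went the other way and were the lowest of all skin libraries. Neutrophil markers summed to 11.2 and 12.8 usable CPM there, against 27.7 to 245 in the rest of the skin libraries. The part of depth, RNA composition and cell types in these differences was not tested.

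The order of the genes within a group was compared per length, as mean normalized CPM per kb of exon. Fos led in both skin groups, with 119 ± 130 with acetone and 42.3 ± 21.95 with DNFB (SD, n = 5), and Fosb and Jund were the lowest in both. Dusp1 was second with acetone, at 73.1 ± 72.6, and with DNFB, at 29.4 ± 15.3, came after Fos and Junb, the latter at 31.9 ± 15.6. The spreads of these neighbours overlap. In the pancreas Dusp1 was ninth of 10 with PBS, at 0.83 ± 0.80, and first with caerulein, at 28.4 ± 36.4. That first place depends on caerulein library 10, which had 92.5 of Dusp1. The other caerulein libraries had 6.23 to 22.6 of Dusp1 and 12.4 to 24.3 of Fos. Fos was second in both pancreas groups, at 4.86 ± 3.39 and 23.4 ± 14.4, and Ier2 went from first, at 5.52 ± 5.41, to a place after Dusp1, Fos and Junb, at 15.1 ± 11.05. With 11 Dusp1 counts in the whole PBS group, these ranks are coarse.

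Across groups, levels were set side by side as usable CPM, since the 2 tissues were normalized apart. Dusp1 was at 963 ± 1018 with acetone, 399 ± 192 with DNFB, 18.4 ± 17.8 with PBS and 869 ± 1090 with caerulein (SD, n = 5). Fos followed the order acetone (1169 ± 1381), caerulein (505 ± 299), DNFB (425 ± 243) and PBS (66.3 ± 45.8). Egr1 was highest with caerulein, at 602 ± 201, followed by acetone (490 ± 559), DNFB (209 ± 116) and PBS (123 ± 113). PBS was the lowest group for Fos, Dusp1 and Egr1, and neighbouring groups above it did not differ beyond their spread.

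The difference between the tissues was fitted over all 20 libraries, as the DNFB log2 difference less the caerulein log2 difference. It was negative for all 10 genes, from -6.10 (SE 1.39) for Dusp1 to -0.28 (SE 0.96) for Jund, with a median of -2.80 against -0.35 for the 8336 genes tested. Junb (-3.96, SE 1.31), Atf3 (-3.93, SE 1.18) and Fos (-3.43, SE 1.28) came next after Dusp1. One of the 10, Dusp1, was past the adjusted threshold, where 0.276% of tested genes were, and nothing is read from that count either. Without acetone libraries 11 and 12 all 10 differences stayed negative, their median was -1.19 against -0.20 for all genes, and Dusp1 was at -4.84 (SE 1.36). In that fit 0 of the 10 were past the threshold, as were 0 of all 9385 tested genes. Among libraries 1 to 10 the median was -1.11 against -0.19, with 8 of the 10 negative and Egr1 and Jun at 0.12, and among libraries 11 to 20 it was -5.66 against -1.15, with all 10 negative.

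The 10 genes varied together between libraries. Over the 10 skin libraries the median Pearson r of their 45 pairs on log2(normalized CPM + 1) was 0.79, from 0.33 for Egr1 with Jund to 0.97 for Fos with Zfp36, and it was 0.66 over the 8 libraries without acetone 11 and 12. Over the 10 pancreas libraries the median was 0.68, with Fos and Atf3 highest at 0.93 and Junb and Jund lowest at 0.13, and it was 0.60 over the 9 without caerulein library 10. The pairs share libraries and therefore depth and composition. A mean standardized level was taken over the genes of the 10 that passed the filter, 8 in skin and 7 in pancreas. The genes outside the 10 with the highest r with it in skin were Sec24b (0.98), Trafd1 (0.97), Gpx3 (0.96), Smim7 (0.96), Def8 (0.96) and Rnf167 (0.95), none of them on a list of immediate early genes. In the pancreas they were Fth1 (0.99), Ifitm2 (0.98), Ifitm3 (0.97), Ctsz (0.97), Iqgap1 (0.97) and Apoe (0.96), of which Fth1 encodes the ferritin heavy chain, Ctsz a lysosomal protease and Apoe a lipid carrier made in quantity by macrophages. Each of these r values is over 10 libraries. The 26 other immediate early genes tested in skin had a median r of 0.76 with the mean level, against 0.13 for all tested genes, and 3 of the 26 had an r over 0.9, as 0.951% of all did. In the pancreas the 7 tested had a median r of 0.82 against 0.01, and 2 of the 7 were over 0.9, as 5.32% of all were. These values are a description and share the same libraries and depth.

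The other genes of the pathway were followed on 8 lists, which hold 139 genes. In skin 77 of them passed the filter and 0 were past the adjusted threshold by edgeR, where 0.0413% of all tested genes were, while DESeq2, run without that filter, called 3 (Il1b, Ccl4 and Cxcl2, all higher with DNFB). Among other immediate early transcription factors, 9 of 21 were tested, and 8 of the 9 had a negative log2 fold change (median -0.75 against 0.02 for all genes). Without acetone libraries 11 and 12, the median of the 8 still tested was 0.07 and 5 were positive. The effectors and feedback inhibitors went the same way, from a median of -0.56 over 17 tested genes to 0.36 over 16. The 13 tested heat shock and chaperone genes had a median of 0.02 and the 15 tested upstream genes (SRF, ternary complex factors and MAP kinases) one of -0.03. Without acetone libraries 11 and 12 these medians were 1.06, with 9 of 13 positive, and 0.11, with 9 of 15 positive. The stress and DNA damage genes went from a median of -0.20 over 10 tested genes, 4 of them positive, to 1.17 over 9, of which 7 were positive. All genes tested went from 0.02 to 0.17. Of the 14 genes on the list of AU-rich targets of ZFP36 and inducible inflammatory genes, 4 passed the filter in skin. All 4 were positive, with a median of 3.90, where 51.6% of all tested genes were positive. A gene could pass on its DNFB libraries alone, so these 4 do not give the direction of the list. Without acetone libraries 11 and 12 the median was 4.29 over 5 tested genes. Of these, 4 were positive and Il6 was at -0.50 (SE 0.80), where it had been at 0.27 (SE 0.85). Il1b, which encodes interleukin-1β, had the highest value with all libraries, 5.47 (SE 0.97), with an adjusted p = 0.0522 by edgeR that misses the threshold, and 5.35 (SE 1.26) without that pair. Ccl4, a macrophage chemokine, went from 4.20 to 8.62 (SE 2.05) and was then above Il1b, each with an adjusted p = 0.161 by edgeR. Ccl4 had no count in acetone libraries 1, 2 and 3, so that its value without the pair depends on the prior count of the fit. These 3 genes are named after their values were seen.

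In the pancreas 14 of the 139 list genes passed the filter, and 3 were past the threshold, where 12.2% of all 946 tested genes were, all higher with caerulein. Nr4a1, an orphan nuclear receptor of the immediate early class, averaged 6.58 ± 7.96 normalized CPM in PBS and 46.3 ± 41.3 in caerulein libraries (SD, n = 5; log2 fold change 2.74, SE 0.88, adjusted p = 0.0462, edgeR). Its PBS libraries had 2.93, 17.4, 0, 12.5 and 0 and its caerulein libraries 13.3, 116, 23.4, 50.7 and 28.1, so that only the lowest caerulein library was inside the PBS range. Nfkbia, the NF-κB inhibitor that NF-κB itself induces, was at 8.01 ± 10.01 and 85.0 ± 72.4 (log2 fold change 3.32, SE 0.86, adjusted p = 0.0240, edgeR). Its lowest caerulein library, at 42.5, was above the highest PBS library, at 25.3. Hspa8, the constitutive heat shock cognate protein, was at 17.6 ± 16.3 and 139 ± 115 (log2 fold change 2.95, SE 0.92, adjusted p = 0.0400, edgeR), with 2 caerulein libraries, at 19.4 and 35.9, inside the PBS range. None of the 3 was past the threshold with caerulein library 10 or any 1 of PBS libraries 7, 15, 16 and 17 left out, among libraries 1 to 10 alone, or with libraries scaled by ribosomal protein counts. Of the 14 tested, 13 had a positive log2 fold change, where 50% of all 946 tested genes did. The exception was a gene of the upstream list at -0.38. A gene could pass the filter on its caerulein libraries alone, so nothing is read from that count. None of the listed MAP kinase phosphatases other than Dusp1 passed the filter in the pancreas. The same held for the list of AU-rich targets and inflammatory genes.

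**Figure D5:**
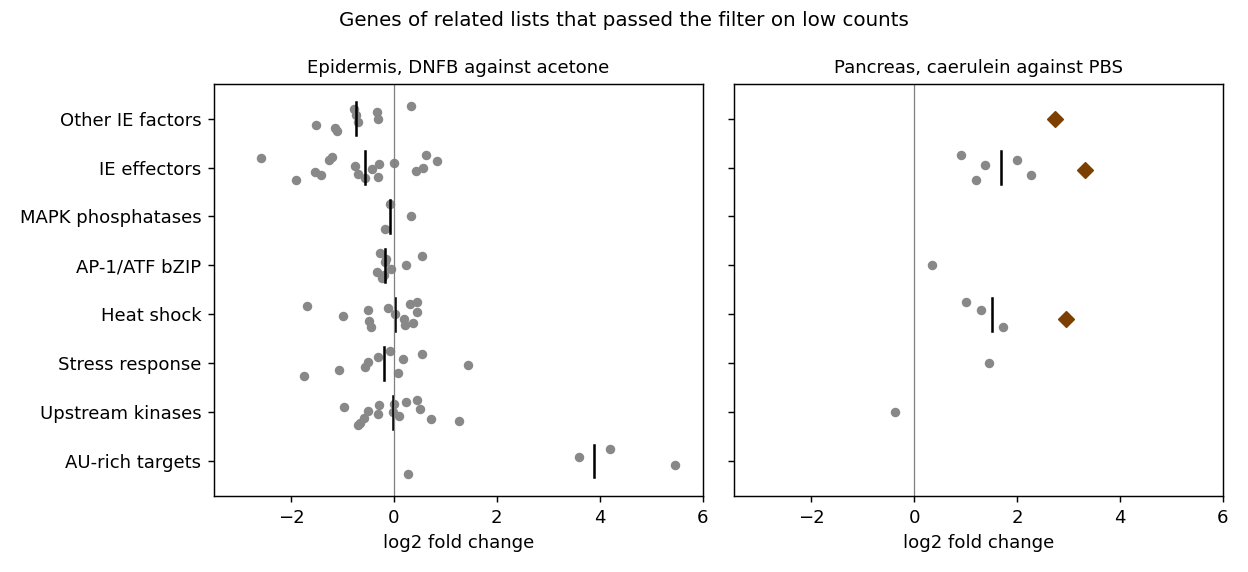
Log2 fold change of each list gene that passed the filter, in epidermis (left) and pancreas (right), by list, with a vertical bar at the median of each list with more than 1 tested gene and diamonds for genes past the adjusted threshold. In epidermis the 4 genes of the list of AU-rich targets and inflammatory genes lie between 0.27 and 5.47, and in pancreas the diamonds are Nr4a1, Nfkbia and Hspa8.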

How the data were processed

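Epidermis and pancreas were lysed and sequenced by a modified SMART-Seq2 protocol with Nextera XT libraries. The authors mapped reads to mm10 (GRCm38) with STAR 2.5.3 and quantified them with RSEM 1.3.1. The deposited table holds expected counts by gene, not normalized, of which 94.7% were whole numbers. The submitters' processing notes also name DESeq2 1.24.0. The counts were rounded here. The table holds 0 columns that were not used. Of 55471 genes, 55144 were given a name from the GENCODE M21 annotation of GRCm38.

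Groups and library numbers came from the labels, and no number is shared between groups. In each tissue, 5 against 5 libraries were fitted with edgeR 4.0.16 in R 4.3.3 (filterByExpr, minimum count 10; TMM; glmQLFTest without covariates; Benjamini-Hochberg, threshold 0.05), and the tissue difference over all 20. This test was checked on simulated data. Immediate early genes under the filter got a fitted log2 fold change with the common dispersion and no test. Normalized CPM were TMM-scaled within each tissue, and logs were taken after adding 1. Of 40 pairs of libraries within a group, 0 were identical. Counts outside 12 satellite-like genes (sharing at least 50% of 15-base words with known ones) are called usable.

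The 10 genes and the lists were chosen with earlier results of these data known. Leaving out acetone libraries 11 and 12 rests on how they stood apart in these data, and nothing in the labels calls for it. Named genes were the 10, each list gene past the threshold in either tissue, and the 6 genes per tissue with the highest r with the mean level of those of the 10 that passed the filter. Alternatives were DESeq2 1.42.0, library totals, no filter, satellite-like genes left out, ribosomal protein counts (79 genes) or usable counts as library size, acetone libraries 11 and 12 left out, and each library left out in turn; the scalings by ribosomal protein and usable counts, the number range (1 to 10, 11 to 20) as a term and either range alone were chosen after seeing the data.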

Additional observations from a re-analysis of the deposited data

Results flagged for a closer look

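Among the 10 genes in the 4 groups, 40 sets of 5 libraries were screened for a library far from the others, a screen in which chance flags about 1 set in 20, and 1 was found. Fosb was at 0 normalized CPM in acetone library 3, where the other acetone libraries had 22.5 to 34.6; that library held 153039 usable counts, and 3 counts there would be 5.33 normalized CPM.

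Among the 87 list genes tested over all 20 libraries, 2 differed between the tissues in their response by the test of the difference, where 0.276% of all 8336 tested genes did. Socs3, a feedback inhibitor of cytokine signalling, had a DNFB log2 difference less its caerulein difference of -7.11 (SE 1.33, adjusted p = 0.0160, edgeR), with an adjusted p of 8.1e-06 to 0.9999 over 30 alternatives, 21 of which called it. Ppp1r15a (GADD34), which ends the translational arrest of the integrated stress response, had -5.14 (SE 1.13, adjusted p = 0.0442, edgeR), with 0.00042 to 0.9999 over 30 alternatives, 10 of which called it. The PBS libraries held 1 count of Socs3 and 2 of Ppp1r15a in all, so both sizes depend on the prior count of the fit. Without acetone libraries 11 and 12 the differences were -5.73 and -4.43, each with an adjusted p = 0.286. Both genes were singled out after their values were seen.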

How the results depend on the processing

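For the 10 genes, the skin median stayed negative in every fit but those without acetone libraries 11 and 12 (0.54) and with libraries 1 to 10 alone (0.62; -2.29 with libraries 11 to 20, -0.81 with the number range as a term), and it was between -1.71 and -0.98 with any 1 library left out. The pancreas median stayed positive throughout, from 1.25 to 2.29 with each library left out, and was 3.43 with library totals, 1.22 and 2.66 with libraries 1 to 10 and 11 to 20 alone and 1.81 with the range as a term. Single genes changed sign in 15 of 200 fits in skin, 8 of them without acetone libraries 11 and 12, 6 with libraries 1 to 10 alone (Fos to 0.78, Jun to 1.21, Junb to 1.56, Egr1 to 1.16, Ier2 to 0.81, Zfp36 to 0.46) and 1 with the range as a term (Junb to 0.08), and in 1 of 190 in pancreas, Jund with library totals. With libraries 1 to 10 alone, 11 to 20 alone and the number range as a term, the numbers of genes called were 0, 965 and 12 in skin, 6, 405 and 101 in pancreas, and 0, 1663 and 5 for the tissue difference, and of list genes 0, 12 and 2 (Ccl4, Il1b) in skin and 0, 10 and 4 in pancreas. The numbers of genes called depended on the fit, and the cause was not tested. In skin 3 genes were called, against 80 with DESeq2, 0 with library totals, 106 with no filter, 6 with satellite-like genes left out, 7 with usable counts as library size, 1 without acetone libraries 11 and 12, and 0 to 34 with each library left out. In pancreas 115 were called, against 773, 531 and 1264 with DESeq2, library totals and no filter, 0 with ribosomal protein counts, 210 with usable counts, and 15 to 293 with each library left out. For the tissue difference 23 were called, against 839, 0 and 974 with DESeq2, library totals and no filter, 42 with satellite-like genes left out, 0 with ribosomal protein counts, 532 with usable counts, 0 without acetone libraries 11 and 12, and 0 to 626 with each library left out. List genes called in skin were 0, against 3 with DESeq2, 4 with no filter, 1 with satellite-like genes left out and 1 with usable counts, and 0 to 1 with each library left out. List genes called in pancreas were 3, against 18, 14 and 30 with DESeq2, library totals and no filter, 0 with ribosomal protein counts, 7 with usable counts, and 0 to 10 with each library left out. Over 19 alternatives the adjusted p-values of edgeR or DESeq2 ran from 0.00435 to 0.790 for Nr4a1, 0.00113 to 0.640 for Nfkbia and 0.00248 to 0.9998 for Hspa8. The PBS libraries, with 69628 to 201695 usable counts, limit what can be said of a gene at a few counts. No paired analysis was possible because the groups share no library number.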
